A study of Mus musculus with 4 samples.

Results

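The proteasome subunit genes are the mouse genes whose symbols read *Psma*, *Psmb*, *Psmc*, *Psmd* or *Psme* followed by a number, with the immunoproteasome genes *Psmb8* and *Psmb9* left out. The rule used names only and no measured value, and it found 40 of the 20642 gene symbols in the deposited PRO-seq table, each with a single transcript. Of the 40, 38 passed the filter for active genes, that is, they had reads at the promoter and averaged more than 4 normalized reads per kb along the gene body. *Psma8*, a testis subunit, and *Psmb11*, a subunit of the thymus, did not pass. *Psma6* was not analysed here.

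The proteasome is the protease that degrades most ubiquitin-tagged proteins of the cell. Its barrel-shaped core is made of outer alpha rings (*Psma* genes) and inner beta rings (*Psmb* genes) that carry the catalytic sites. The 19S regulatory particle caps the core. Its ATPases (*Psmc* genes) unfold substrates, and its other subunits (most *Psmd* genes) include some that bind or trim ubiquitin chains, while the *Psme* genes encode alternative caps. The subunits are needed in fixed proportions, the genes are used in every cell, and in the liver the proteasome serves a tissue with heavy protein turnover.

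PRO-seq maps the position of engaged RNA polymerases by letting them run on in isolated nuclei with biotin-labelled nucleotides. The 4 libraries came from the livers of C57BL/6 mice at day 14 of age. All mice carried *Alb-Cre*, a Cre recombinase driven by the albumin promoter and thus active in hepatocytes. The 2 WT libraries came from mice with both wild type *Hdac3* alleles, and the 2 KO libraries from mice with a conditional allele (F) in the F/F or F/- state. The design is meant to remove *Hdac3*, which encodes a histone deacetylase, from hepatocytes and to keep it in other liver cells. The extent of the loss was not measured here. Nuclei of several mice were pooled for each library, so the p-values measure the spread between pools and not between mice. For each gene the table gives the normalized reads in a 50 bp promoter-proximal window, the best such window within 500 bp of the start site, and in the gene body, which begins 1 kb past the start. The pausing index is the density of the first divided by that of the second.

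The libraries held 16628518 (KO2) to 26190040 (WT2) reads on genes. The promoter-proximal share of these reads was 10.3% in WT1 and 9.39% in WT2, against 13.6% in KO1 and 17.0% in KO2, each with a 95% Wilson interval of at most ± 0.0181 points that covers counting error only. Over all 12705 active genes the promoter-proximal log2 fold change, KO over WT, therefore had a median of 0.56, while the gene body median was -0.09. The *Hdac3* gene body held 665 and 648 normalized reads in WT and 609 and 582 in KO, a log2 fold change of -0.14 that did not pass the test (limma, adjusted p = 0.413). This count spans the whole gene body, and the part removed by Cre was not counted on its own, so the value does not check the labels. All 8 hepatocyte markers were transcribed in every library, but their summed gene body reads were 304843 and 311879 in WT and 141104 and 146236 in KO, and 6 of the 8 were called lower. The 5 stellate markers (9048 and 10120 in WT, 17960 and 19642 in KO) and the 5 endothelial markers (51483 and 56027 in WT, 85946 and 96211 in KO) were higher in KO, and no marker of the lists was at 0. In bulk nuclei, fewer cells of a type and less transcription per cell cannot be told apart, and the part of these marker shifts in the results on proteasome genes was not tested.

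In WT liver the gene body densities of the proteasome subunit genes were less spread than those of all active genes. Their promoter-proximal signals ranged more widely than their densities. The 38 active members had a median gene body density of 61.3 normalized reads per kb in WT, against 37.7 for all active genes, and 34 of the 38 lay above that figure. Their log2 densities had an SD of 0.72 across genes, compared with 1.52 over all active genes. For log2 promoter-proximal reads the SD was 1.76, compared with 2.17 over all active genes. The middle range was narrow, with quartiles of 46.2 and 80.8 reads per kb.

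The order of gene body densities began with *Psmb10*, the inducible beta subunit, at 189 reads per kb in WT. Then came the alpha subunit gene *Psma4* at 112 and the ATPase gene *Psmc4* at 102, whose libraries overlapped (104 and 120 for *Psma4*, 84.1 and 121 for *Psmc4*). At the low end stood *Psme4*, which encodes the large single-chain activator PA200, at 31.7, *Psmd14*, which encodes the deubiquitinase of the 19S lid, at 20.4, and *Psmd10*, which encodes the assembly chaperone gankyrin, at 10.6. *Psma8* had only 1.66 reads per kb and *Psmb11* was listed at 0 in WT.

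Promoter-proximal reads ran from 10.4 for *Psmb5*, which encodes the catalytic subunit with chymotrypsin-like activity, to 1499 for *Psme3*, which encodes the nuclear activator PA28 gamma (means of WT). Across the 38 members, the correlation between log2 promoter-proximal reads and log2 gene body density in WT was 0.03 (Pearson's r, a description over genes that share the same 2 libraries). The pausing index thus ranged from 4.58 (*Psmb5*) to 637 (*Psma2*), with a median of 63.3 beside 47.2 for all active genes. Low indices were found for *Psmc1* (4.87), *Psma3* (8.28) and *Psmc4* (8.58), and high ones for *Psme3* (471) and *Psme4* (469). Members of one complex, some with close gene body densities, therefore sat far apart on this scale. Their log2 indices were spread as those of all active genes were (SD of 1.88 for each).

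**Figure D1:**
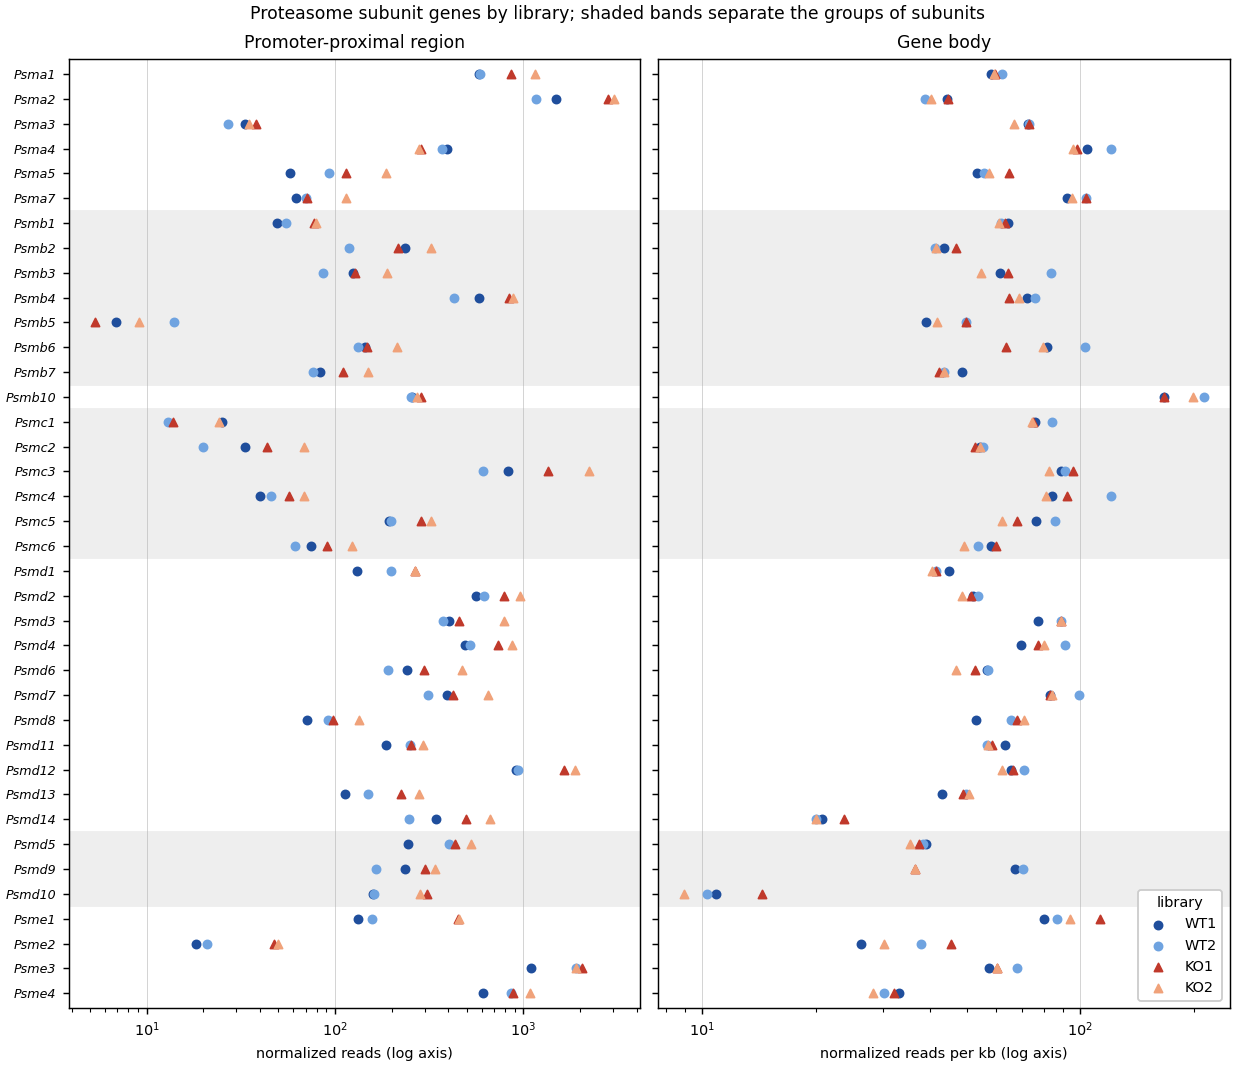
Normalized promoter-proximal reads (left, log axis) and gene body reads per kb (right, log axis) of the 38 active proteasome subunit genes, with 1 point per library (circles WT1 and WT2, triangles KO1 and KO2). In the left panel the triangles lie right of the circles for 34 genes, and in the right panel the points of most genes lie together, with *Psmd9* as the gene whose KO points stand far left.

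The first comparison asked whether loss of *Hdac3* changed promoter-proximal polymerase at these genes. On the deposited scale promoter-proximal reads were higher in KO for most of them. Both KO libraries lay above both WT libraries for 34 of the 38 members (89.5%), where 61.9% of all active genes did so. A gene was called where the adjusted p (limma on log2 normalized reads + 1, Benjamini-Hochberg over the 12705 active genes) was under 0.05 and the log2 fold change beyond 0.6 in either direction. By this rule 13 of the 38 members rose (34.2%), beside 25.8% of all active genes, and none fell, beside 2.2%. With limma no member fell at an unadjusted p under 0.05 either, and edgeR and DESeq2 also called 0 lower. edgeR called 13 members higher and DESeq2 11, without *Psma5*, *Psmc2* and *Psme2*, which missed its adjusted threshold, and with *Psmd4* (DESeq2 adjusted p = 0.0485). The median log2 fold change of the members was 0.63, close to the 0.56 of all active genes, and 26 members lay above that median. The members also had more promoter-proximal reads in WT than active genes did (medians of 186 and 92.1). The part of this read level in the shares above was not tested. The SE of a single member was 0.27 to 0.49, so the 25 members that were not called are not shown to be without a change, and for none of them did the 95% interval lie within 0.6 of 0 on both sides.

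Summed over the 40 members, the promoter-proximal reads were 11651 and 11984 in WT, and 17977 and 21637 in KO. KO2 was the higher of the KO libraries for 33 of the 38 active members, with a median log2 ratio of 0.29 over KO1, beside 0.36 over all active genes. The rise was present with either KO library, in the members and over all active genes. Against WT1 the median log2 ratio of the members was 0.50 for KO1 and 0.82 for KO2, beside 0.34 and 0.69 over all active genes. Against WT2 it was 0.49 and 0.87, beside 0.41 and 0.79.

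The count of called members depended on the scaling and on single libraries. With each region scaled to its own median of ratios, the median of all genes was about 0 and that of the members 0.06. By that scaling 2 members (*Psmc3* and *Psme1*) were called higher and 1 (*Psma4*) lower. Of all 12705 active genes 634 were then called higher and 942 lower, beside 3282 and 280 in the main fit. Without KO2 the count was 1, without WT2 it was 1, without WT1 it was 3, and without KO1 it stayed at 13. A replicate block gave 6, beside 1772 of all 12705 active genes. Over all active genes the number called higher also fell without KO2, WT2 or WT1, and it rose without KO1. Their median log2 fold change was 0.37 without KO2 and 0.74 without KO1. The swings in the member counts thus went with swings over all active genes.

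Among the alpha ring genes, 3 of 6 were called, all higher, beside 25.8% of all active genes called higher. *Psma2* had 1492 and 1166 promoter-proximal reads in WT, and 2805 and 3017 in KO. The KO libraries were well apart from the WT libraries, and the difference exceeded the spread within genotypes (log2 fold change 1.14 ± 0.27 SE, limma adjusted p = 0.000590). *Psma5* (57.4 and 93.0 in WT, 115 and 187 in KO) and *Psma1* (583 and 591 in WT, 860 and 1157 in KO) also did not overlap between genotypes. Their log2 fold changes were 0.99 ± 0.35 (adjusted p = 0.0218) and 0.76 ± 0.29 (adjusted p = 0.0330). *Psma4* was the single active member with both KO libraries below both WT libraries (391 and 370.0 in WT, 285 and 278 in KO), a pattern held by 6.72% of all active genes. Its log2 fold change of -0.43 ± 0.31 did not pass the test (adjusted p = 0.257), but it was called lower when the region was scaled by median of ratios or by TMM (limma adjusted p of 0.00242 and 0.00214). It was singled out after its values were seen. *Psma3* (27 to 38.2 reads over the 4 libraries) and *Psma7* (62.0 to 114) were not called.

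The promoters of *Psma2* and *Psma4* are shown because they carry the clearest rise and the only lower values of this ring. They are RefSeq sequences of GRCm38.p6 that run from 250 bases before to 50 after the start, with matches to the searched motifs in capitals. The *Psma2* promoter lies at chr13:14612992-14613291 (plus strand) and the *Psma4* promoter at chr9:54950609-54950908 (plus strand).
Psma2: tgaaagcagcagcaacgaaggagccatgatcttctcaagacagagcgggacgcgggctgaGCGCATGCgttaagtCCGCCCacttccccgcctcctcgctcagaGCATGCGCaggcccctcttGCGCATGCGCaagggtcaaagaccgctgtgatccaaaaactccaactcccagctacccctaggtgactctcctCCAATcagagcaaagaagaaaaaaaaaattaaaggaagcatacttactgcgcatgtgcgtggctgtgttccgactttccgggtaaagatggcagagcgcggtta
Psma4: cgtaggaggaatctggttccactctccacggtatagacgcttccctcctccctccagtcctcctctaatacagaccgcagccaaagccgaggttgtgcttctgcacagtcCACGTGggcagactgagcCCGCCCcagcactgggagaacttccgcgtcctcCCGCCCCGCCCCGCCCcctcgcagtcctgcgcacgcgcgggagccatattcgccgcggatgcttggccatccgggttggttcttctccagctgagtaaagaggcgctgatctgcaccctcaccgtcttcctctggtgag
The capitals in *Psma2* mark 4 matches, partly overlapping, to the core of the nuclear respiratory factor 1 site, a CCAAT box and a GC box. Those in *Psma4* mark an E-box and 4 GC boxes. A start site of another gene on the opposite strand lay 75 bp upstream of *Psma2* in GENCODE (*Mrpl32*, which encodes a mitochondrial ribosomal protein).

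Of the 7 constitutive beta ring genes, *Psmb4* alone was called (14.3%), beside 25.8% of all active genes called higher. It had 583 and 428 reads in WT and 841 and 882 in KO, with a log2 fold change of 0.79 ± 0.29 (limma adjusted p = 0.0301). The groups did not overlap for 4 others, *Psmb1*, *Psmb3*, *Psmb6* and *Psmb7*, whose log2 fold changes of 0.36 to 0.68 did not pass. With *Psmb4*, 5 of the 7 genes (71.4%) had both KO libraries above both WT libraries, beside 61.9% of all active genes. *Psmb5* had so few reads (6.88 and 14.0 in WT, 5.30 and 9.11 in KO) that a difference was not detectable at this depth. *Psmb2* (234 and 118 in WT, 215 and 325 in KO) overlapped between genotypes. *Psmb10*, the inducible subunit that replaces *Psmb7* in the immunoproteasome, had 256 and 253 reads in WT and 287 and 273 in KO, a log2 fold change of 0.14 ± 0.31 that lay below the median of all genes and was not called (adjusted p = 0.734).

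The 6 ATPase genes of the 19S base included the strongest rise among the constitutive subunits. *Psmc3* had 832 and 612 reads in WT and 1356 and 2214 in KO. The fold was 2.43 (log2 fold change 1.28 ± 0.28, limma adjusted p = 0.000158), and the 2 KO libraries differed from each other by more than the 2 WT libraries did. *Psmc2* rose from low levels (33.3 and 20.0 in WT, 43.5 and 68.3 in KO), with a log2 fold change of 1.05 ± 0.39 (adjusted p = 0.0332). *Psmc4*, *Psmc5* and *Psmc6* were higher in both KO libraries, at log2 fold changes of 0.53 to 0.64, without passing the test. *Psmc1* (13.0 to 25.2 reads) overlapped between genotypes.

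All 11 of the other 19S subunit genes separated the genotypes without overlap, with KO above WT, and 4 were called (36.4%). Of all active genes 61.9% separated in this way and 25.8% were called higher. The median log2 fold change of the 11 genes was 0.66, near the 0.56 of all active genes. *Psmd12*, a scaffold subunit of the lid, had 916 and 934 reads in WT and 1640 and 1878 in KO, with a log2 fold change of 0.92 ± 0.28 (limma adjusted p = 0.00763). For *Psmd14*, the values were 344 and 246 in WT against 498 and 663 in KO, with a log2 fold change of 0.98 ± 0.30 (adjusted p = 0.00880). *Psmd13*, another lid subunit, had 112 and 150 reads in WT and 223 and 279 in KO (log2 fold change 0.94 ± 0.32, adjusted p = 0.0209). The fourth, *Psmd6*, had 242 and 190 in WT and 296 and 472 in KO (0.80 ± 0.31, adjusted p = 0.0394). The remaining 7, among them the ubiquitin receptor gene *Psmd4* and the scaffold genes *Psmd1* and *Psmd2*, had log2 fold changes of 0.34 to 0.72 that were not called.

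*Psmd12* and *Psmd13* are shown for the ETS core in their promoters, the motif, of the 8 first searched, in which the members departed most from other active genes. The *Psmd12* promoter lies at chr11:107479278-107479577 (plus strand) and the *Psmd13* promoter at chr7:140882144-140882443 (plus strand), in the same build.
Psmd12: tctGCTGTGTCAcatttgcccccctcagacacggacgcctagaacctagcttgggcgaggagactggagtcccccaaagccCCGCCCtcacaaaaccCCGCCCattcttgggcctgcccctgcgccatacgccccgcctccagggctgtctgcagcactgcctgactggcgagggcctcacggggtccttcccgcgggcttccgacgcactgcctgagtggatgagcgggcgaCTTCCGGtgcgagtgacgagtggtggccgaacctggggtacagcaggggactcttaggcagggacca
Psmd13: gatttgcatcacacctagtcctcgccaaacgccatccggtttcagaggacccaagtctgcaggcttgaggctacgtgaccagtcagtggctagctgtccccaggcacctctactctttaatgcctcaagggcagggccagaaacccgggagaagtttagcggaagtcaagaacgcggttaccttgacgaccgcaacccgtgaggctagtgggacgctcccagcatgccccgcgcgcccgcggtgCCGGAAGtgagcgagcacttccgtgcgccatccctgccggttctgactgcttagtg
The capitals in *Psmd12* mark the ETS core near the start, a match to the antioxidant response element core far upstream and 2 GC boxes. In *Psmd13* they mark the ETS core alone.

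Motifs were searched on both strands in the RefSeq promoters, which were given for 33 of the 40 members (35 promoters). The genes without one were *Psma8*, *Psmb1*, *Psmb2*, *Psmb7*, *Psmc3*, *Psmd3* and *Psmd7*. The ETS core CCGGAAG was found in 12 member promoters (34.3%), beside 16.5% of the promoters of active genes and 8.86% of all 32851 promoters. It was present in 4 of the 12 genes called in the promoter-proximal region that had a promoter. The other motifs were about as frequent in members as in active genes. The GC box GGGCGG was found in 62.9% beside 60.8% of promoters of active genes, CCAAT in 34.3% beside 37.8%, and the antioxidant response element core TGACNNNGC, bound by factors of the Nrf family that are known to drive proteasome genes, in 17.1% beside 14.5%. The remaining searches were CACGTG (the E-box, 11.4% beside 9.73%), TATAAA (8.57% beside 7.48%), GCATGCGC (the core of the nuclear respiratory factor 1 site, 5.71% beside 5.09%) and TCTCGCGA (2.86% beside 2.05%). These matches are descriptions of letters in a window and no test was made of them.

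The activator genes differed among themselves. *Psme1* and *Psme2* encode the alpha and beta chains of PA28, a cap known to be induced by interferon gamma and to aid antigen processing. *Psme1* had 132 and 157 reads in WT and 449.8 and 457 in KO, the largest promoter-proximal change of any member. Its fold was 3.14 (log2 fold change 1.65 ± 0.31, limma adjusted p = 1.04e-05), which is 1.09 above the median of all genes. It was called under 16 of the 17 alternatives, of which some, such as dropping the fold threshold, could not undo a call. *Psme2*, which lies 5913 bp away on chromosome 14, had 18.4 and 21.0 reads in WT and 47.7 and 50.1 in KO (log2 fold change 1.27 ± 0.40, adjusted p = 0.0115). In both genes the 2 KO libraries were nearly equal and stood clear of WT. *Psme3* (1098 and 1900 in WT, 2052 and 1905 in KO) and *Psme4* (613 and 859 in WT, 879 and 1083 in KO) had log2 fold changes of 0.45 and 0.43 and were not called.

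The *Psme1* promoter, at chr14:55578244-55578543 (plus strand), is shown because this gene changed the most.
Psme1: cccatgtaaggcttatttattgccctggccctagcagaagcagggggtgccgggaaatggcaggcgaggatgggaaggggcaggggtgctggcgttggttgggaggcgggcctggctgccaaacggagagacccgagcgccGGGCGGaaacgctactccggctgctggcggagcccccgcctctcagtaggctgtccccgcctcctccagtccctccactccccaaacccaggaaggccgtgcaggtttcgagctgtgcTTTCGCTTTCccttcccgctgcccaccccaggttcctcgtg
The capitals mark a GC box and, near the start, a match to the core of the interferon-stimulated response element, searched as 2 GAAA blocks set 2 bases apart. This motif was added to the search after the sequences were seen, and it was found in 11.4% of member promoters (*Psmb3*, *Psmd4*, *Psmd9* and *Psme1*), beside 3.14% of the promoters of active genes. Neither of the 2 *Psme2* promoters held it.

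Among other inducible genes, 4 that neighbour one another on chromosome 17 (mm10, 34182030 to 34216321) were also higher in KO. They lie in a single stretch, apart from *Psme1* and *Psme2* on chromosome 14, and are not 4 separate loci. *Psmb10*, the inducible core subunit gene on chromosome 8, was not called (promoter-proximal log2 fold change 0.14, limma adjusted p = 0.734). *Psmb8* and *Psmb9* encode inducible core subunits of the immunoproteasome, as *Psmb10* does, and *Tap1* and *Tap2* the peptide transporter that feeds antigen presentation. *Psmb8*, *Psmb9*, *Tap1* and *Tap2* were all called higher in the promoter-proximal region, at log2 fold changes of 0.99 to 1.35 (limma adjusted p of 0.00114 to 0.0373). *Psmb8* had 184 and 158 reads in WT and 350.1 and 460.0 in KO. Its gene body also rose, from 52.8 and 77.0 reads to 105 and 94.1 (log2 fold change 0.63 ± 0.24, adjusted p = 0.0434). For *Psme1*, gene body reads were 163 and 176 in WT and 229 and 191 in KO, a log2 fold change of 0.30 ± 0.18 that was not called (adjusted p = 0.190), and for *Psme2* the KO and WT libraries overlapped. The 5 Kupffer cell and macrophage markers had summed gene body reads of 14791 and 15216 in WT and 15730 and 18972 in KO. For the 5 lymphocyte and leukocyte markers the sums were 4281 and 4539 in WT and 5077 and 6251 in KO. Of these 10 markers 1 was called higher in the gene body, a share near the 10.4% of all active genes. None was at 0, and the part of these markers in the values of the inducible genes was not tested.

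The assembly genes of the 19S particle are *Psmd5*, *Psmd9* and *Psmd10*, whose products guide the ATPases into the ring. *Psmd10* was called in the promoter-proximal region (158 and 162 reads in WT, 308 and 284 in KO, log2 fold change 0.88 ± 0.32, limma adjusted p = 0.0270). *Psmd5* (0.60) and *Psmd9* (0.70, adjusted p = 0.0739) were higher in both KO libraries but were not called.

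**Figure D2:**
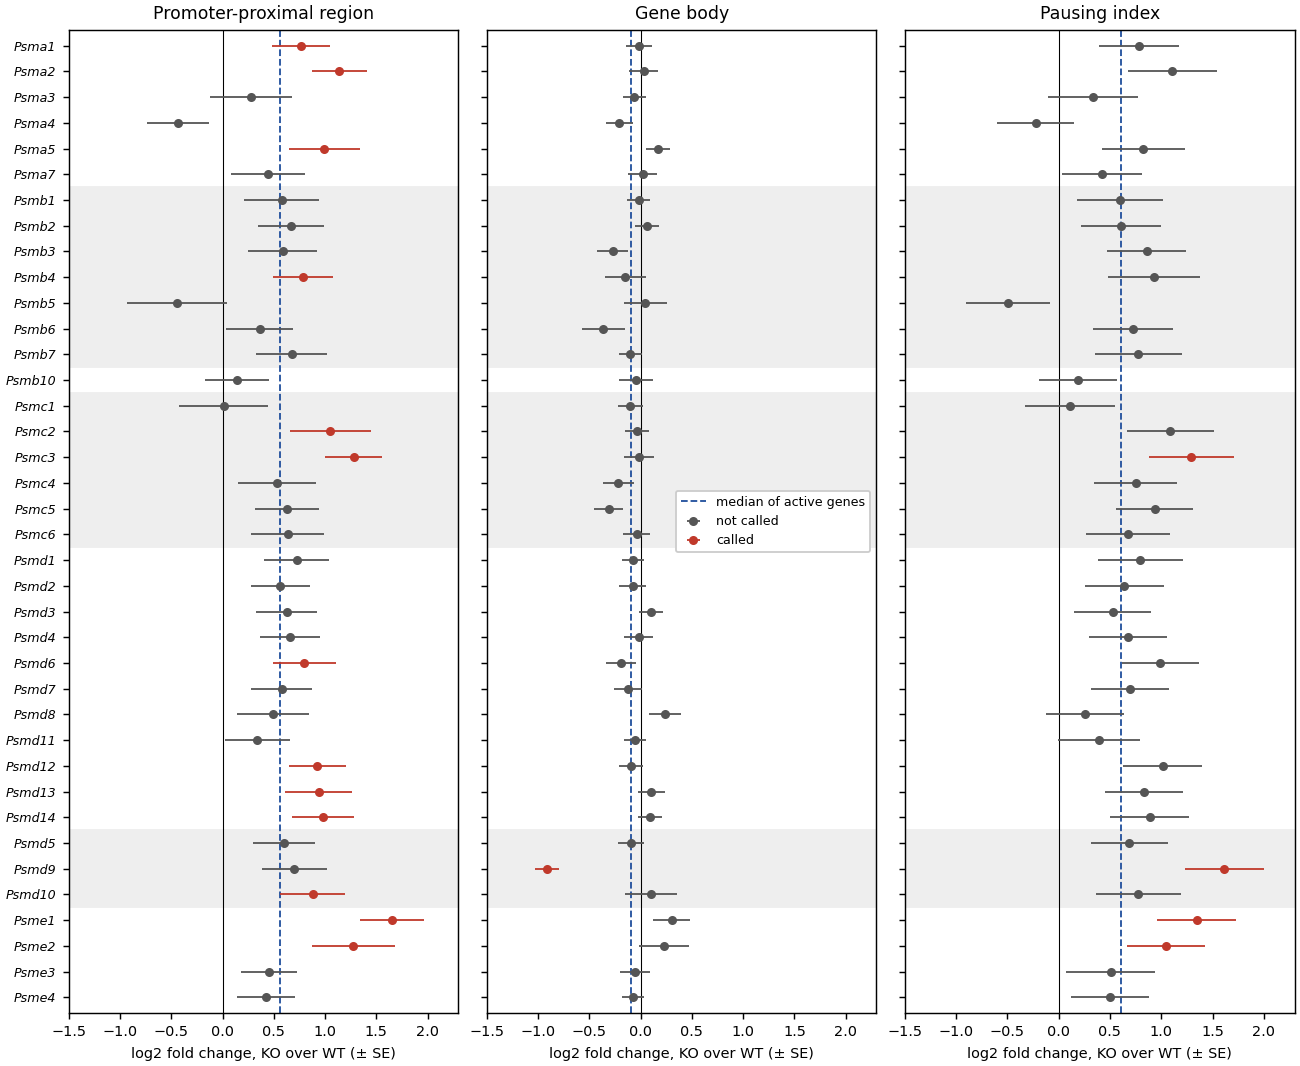
Log2 fold change, KO over WT, ± SE for each of the 38 active members in the promoter-proximal region (left), the gene body (middle) and the pausing index (right). Red points were called, grey points were not, and the dashed line is the median of all active genes. The left panel holds 13 called members, the middle panel only *Psmd9*, and the right panel 4.

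The second comparison asked whether polymerase over the gene bodies changed. It hardly did for this set of genes. Of the 38 members none was called higher, beside 10.4% of all active genes, and 1 was called lower (2.63%), beside 11.4%. With limma no member rose at an unadjusted p under 0.05, and edgeR and DESeq2 also called 0 higher. The median log2 fold change of the members was -0.05, near the -0.09 of all active genes, and leaving *Psmd9* aside the changes ran from -0.36 (*Psmb6*) to 0.30 (*Psme1*). The 95% interval of the log2 fold change lay within 0.6 of 0 on both sides for 32 of the 38 members. The others were *Psmd9*, *Psmb6*, *Psmc5*, *Psmd10*, *Psme1* and *Psme2*, of which all but *Psmd9* had intervals that reached past 0.6 on 1 side only. Both KO libraries lay below both WT libraries for 10 members (26.3%), beside 42.8% of all active genes, and above them for 4 (10.5%), beside 27.6%.

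The summed gene body reads of the 40 members were 35155 and 35616 in WT, and 34808 and 32783 in KO. The 2 largest changes after *Psmd9* were not called. *Psmb6*, which encodes the catalytic subunit with caspase-like activity, had 123 and 155 reads in WT and 95.5 and 120 in KO (log2 fold change -0.36 ± 0.21, limma adjusted p = 0.184). *Psmc5* had 452 and 507 in WT and 403 and 369 in KO (-0.31 ± 0.14, limma adjusted p = 0.0919), and both KO libraries lay below both WT libraries for each of these genes. For *Psmc5* the limma p was under 0.05 before adjustment (unadjusted p = 0.0413). *Psmb3* followed, with overlapping libraries (554 and 760 in WT, 583 and 495 in KO, -0.27 ± 0.15, adjusted p = 0.164).

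*Psmd9* stood apart. It encodes the chaperone p27, known to assist assembly of the ATPase ring, and its gene body held 1410 and 1478 normalized reads in WT but 766 and 764 in KO. The WT values were close to each other, as were the KO values, and the gene body signal was 1.89-fold lower in KO (log2 fold change -0.92 ± 0.12, limma adjusted p = 1.25e-06). The call was made under all 17 alternatives, with log2 fold changes between -0.95 and -0.83. Not all of these could give another outcome. Dropping the fold threshold cannot undo a call, and choosing transcripts by gene body reads keeps the same row for every member. For gene bodies, median-of-ratios scaling within the region and from gene bodies is the same fit. Its promoter-proximal reads were 234 and 165 in WT and 301 and 340.1 in KO, a difference in the other direction that was not called. Its gene body density, 69.0 reads per kb in WT and thus near the middle of the members, was 36.5 in KO.

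The gene lies at chr5:123228190-123250126 on the plus strand in RefSeq (GRCm38.p6), and its promoter at chr5:123227940-123228239 is shown since *Psmd9* was the single member called in the gene body.
Psmd9: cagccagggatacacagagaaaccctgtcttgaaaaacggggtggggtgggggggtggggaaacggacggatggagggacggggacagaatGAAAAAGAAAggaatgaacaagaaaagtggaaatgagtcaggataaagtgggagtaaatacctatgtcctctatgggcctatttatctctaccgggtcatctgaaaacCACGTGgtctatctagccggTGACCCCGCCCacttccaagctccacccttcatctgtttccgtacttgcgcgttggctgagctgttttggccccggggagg
The capitals mark an E-box, a match to the antioxidant response element core that overlaps a GC box, and a match to the interferon-stimulated response element core. Upstream of it, on the minus strand, lies *Hpd*, which encodes an enzyme of tyrosine breakdown that is typical of hepatocytes, with its RefSeq start 45467 bp before that of *Psmd9*. GENCODE extends *Psmd9* upstream to chr5:123169413-123250131, across *Hpd*. *Hpd* was looked up after the values of *Psmd9* were seen. Its gene body held 9390 and 8811 reads in WT and 3501 and 3629 in KO (log2 fold change -1.35 ± 0.11, limma adjusted p = 8.27e-10), and its promoter-proximal window 559 and 457 in WT against 125 and 118 in KO. The list of 2282 enhancers made by the authors from pooled reads places an enhancer of 4 centers between the genes, at chr5:123190833-123206574, which ends 21616 bp before the RefSeq start of *Psmd9*. Values of this enhancer by library were not used here, and whether transcription from it or from the longer GENCODE model enters the *Psmd9* count was not tested.

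**Figure D3:**
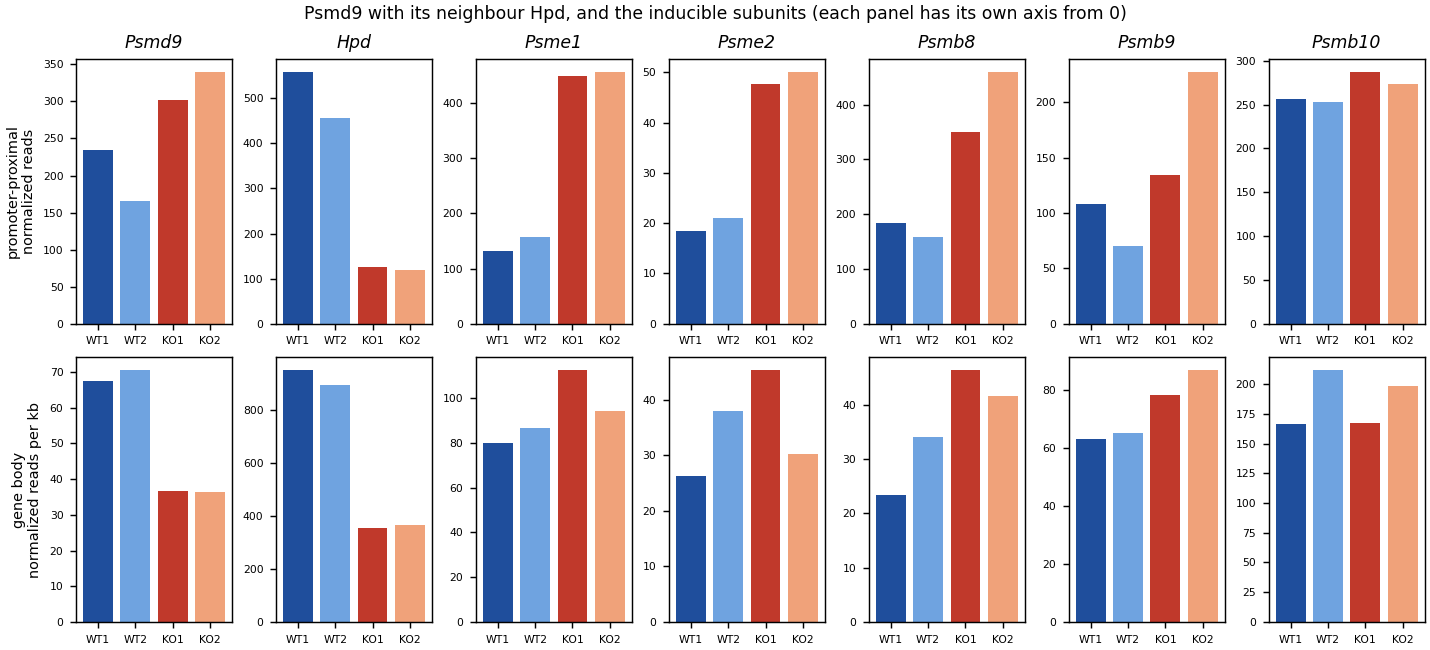
Normalized promoter-proximal reads (top) and gene body reads per kb (bottom) per library, WT1 and WT2 in blue and KO1 and KO2 in red, each panel with its own axis from 0. *Psmd9* fell in the gene body only, *Hpd* fell in both regions, and *Psme1*, *Psme2*, *Psmb8* and *Psmb9* were higher in KO in the promoter-proximal region, with *Psmb10* at like levels in all 4 libraries.

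**Figure D4:**
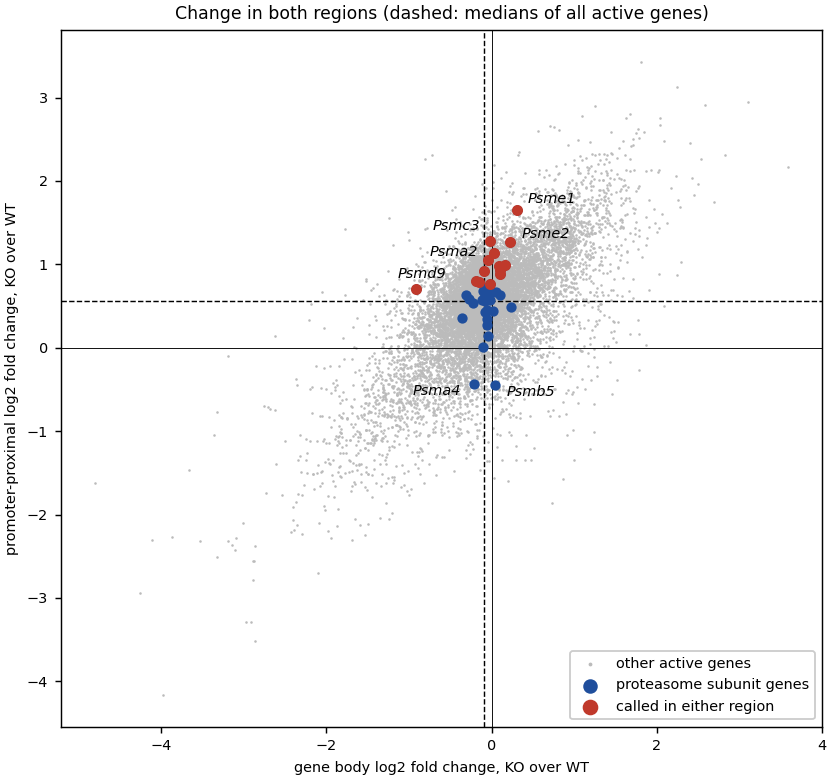
Gene body log2 fold change (x axis) against promoter-proximal log2 fold change (y axis), KO over WT, for the 12705 active genes (grey) with the 38 members in blue, or in red where called in either region. Dashed lines are the medians of all active genes, -0.09 and 0.56. Apart from *Psmd9* the members form a narrow column around no gene body change that reaches from -0.45 (*Psmb5*) to 1.65 (*Psme1*) in the promoter-proximal region.

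The third comparison asked how the pausing index changed. The median index of the members was 63.3 in WT and 97.8 in KO, and the median log2 fold change was 0.74, beside 0.61 for all active genes. Of the 38 members 4 were called higher (10.5%), beside 11.2% of all active genes, and none lower, beside 0.543%. No member was lower at an unadjusted p under 0.05 in limma. The share of members called was near the background.

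The 4 called genes were *Psmd9*, *Psme1*, *Psmc3* and *Psme2*. The index of *Psmd9* was 69.5 and 46.7 in WT and 165 and 186 in KO (log2 fold change 1.62 ± 0.38, limma adjusted p = 0.00250), with lower gene body reads and higher promoter-proximal reads in both KO libraries. For *Psme1* it was 32.9 and 36.3 in WT and 79.9 and 97.2 in KO (1.34 ± 0.39, adjusted p = 0.0161). *Psmc3* (188 and 134 in WT, 283 and 537 in KO) and *Psme2* (14.0 and 11.1 in WT, 21.0 and 33.1 in KO) had log2 fold changes of 1.29 ± 0.41 (adjusted p = 0.0278) and 1.05 ± 0.38 (adjusted p = 0.0485). *Psma2*, which had the highest index in WT (674 and 600.4), reached 1259 and 1494 in KO without passing (1.11 ± 0.43, adjusted p = 0.0644). The count was 16 without KO1, 1 without KO2, and 0 without WT1 or without WT2. It was 0 when each region was scaled on its own, and 1 with the replicate number as a block.

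Most of the genes around the proteasome were called in neither region. Of 32 listed genes for assembly, ubiquitin and regulation, all active, 10 were called higher and none lower in the promoter-proximal region (31.2%, beside 25.8% of all active genes), and 4 of the 10 were the inducible partners described above. Without those partners 6 of 28 were called higher (21.4%), a share below that of all active genes. The 6 were *Pomp*, the maturation factor of the core (0.98), *AI314180*, the older symbol of the scaffold gene *Ecpas* (1.03), the stress regulator *Nfe2l2* (0.79), the ubiquitin gene *Ubb* (1.16), the segregase cofactor *Ufd1l* (0.77) and the shuttle factor *Ubqln4* (0.95), all as log2 fold changes. The median log2 fold change of the 32 genes was 0.64 in the promoter-proximal region and -0.08 in the gene body. In the gene body 1 was called higher (3.12%, beside 10.4% of all active genes), the inducible *Psmb8* described above, and 2 were called lower (6.25%, beside 11.4%).

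The 2 genes called lower in the body have roles tied to the proteasome. *Psmf1* encodes the inhibitor PI31, and its gene body reads fell from 1308 and 1208 to 818 and 814 (log2 fold change -0.62 ± 0.12, limma adjusted p = 0.000187). *Ddi2* encodes a protease known to process the regulator encoded by *Nfe2l1*, and its reads fell from 12634 and 10938 to 7576 and 7704 (-0.62 ± 0.11, adjusted p = 8.83e-05). Both changes lay just past the fold threshold of 0.6. Relative to the median of all active genes each was -0.53, which is inside that threshold, so these calls depend on the scaling. *Nfe2l1* itself had 1934 and 1980 reads in WT and 1917 and 1883 in KO. *Nfe2l2*, which encodes a related factor, was higher (4277 and 4302 in WT, 5496 and 5572 in KO, log2 fold change 0.37 ± 0.11, adjusted p = 0.00724) but below the fold threshold. The pausing index was called higher for *Psmf1*, *AI314180* and *Ubqln4*.

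The positions of the members were described without a test. They lie on 16 chromosomes, with 8 of the 40 on chromosome 11. The share of all genes on that chromosome was not counted. A start site of another protein-coding gene on the opposite strand, up to 1 kb upstream, was found for 7 of the 38 active members (18.4%), beside 10.1% of the active genes present in GENCODE. For 6 of them, *Psma2*, *Psma7*, *Psmb1*, *Psmc2*, *Psmc5* and *Psmd10*, the distance was 32 to 179 bp, and for *Psme2* it was 595 bp. The part of the partner's promoter in these members' values was not tested. In the enhancer list 3 members were the closest gene of an enhancer (*Psmc1* of 2, *Psma1* and *Psmc4* of 1 each), where 10.9% of all active genes were. By distance, 8 of the 38 (21.1%) lay within 50 kb of one, beside 9.83% of all active genes. The 8 were *Psma1*, *Psmb6*, *Psmc1*, *Psmc3*, *Psmc4*, *Psmd9*, *Psmd12* and *Psme3*, whose promoter-proximal changes covered the range from *Psmc1* (0.01) to *Psmc3* (1.28).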

How the data were processed

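PRO-seq of liver nuclei was compared between 2 WT and 2 KO libraries. The authors trimmed the reads with cutadapt, mapped them with Bowtie2 (mm10), dropped ribosomal RNA and mapping qualities under 10, and counted reads per RefSeq transcript with NRSA, which places the promoter-proximal window along the coding strand. The deposited values of WT2 are read counts, since its scaling factor is 1. For WT1, KO1 and KO2 the authors deposited normalized signal, counts multiplied by a factor of 1.15, 1.06 and 1.52, and densities as signal per bp. Dividing by the factor gave whole reads for 100% of the 41640 values per library (within 0.02 of a read). The deposited enhancer list gives positions, distances and linked genes from pooled reads, with no value per library.

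For each symbol 1 row was taken, that of highest mean promoter-proximal signal, and log2(normalized reads + 1) was compared with limma 3.58.1 (trend, empirical Bayes, two-sided, no block) in R 4.3.3 over 12705 active genes. A log2 fold change on this scale understates changes of low genes. The pausing index was tested as the difference of the log2 values. Count tests with edgeR 4.0.16 and DESeq2 1.42.0 (recovered reads), other scalings, pseudocounts, filters, the replicate block and leaving out each library were alternatives, and the code was tested on simulated data. With 2 libraries per genotype an exact permutation test cannot give a two-sided p under 0.333. The labels give no batch. The members, lists and motifs were chosen with earlier results of these data known. Members called in either region or in the pausing index, and the 5 with the largest absolute change in each region, are given with full statistics, as are listed pathway genes that were called. A gene of the pathway lists is not reported here. Symbols were matched to RefSeq (GRCm38.p6) and GENCODE annotation of the same build. Cell type markers were lists of 4 to 8 genes. Those not given with the report are the cholangiocyte markers, with summed gene body reads of 124 and 167 in WT and 132 and 100.2 in KO, the erythroid markers (864 and 1052 in WT, 472 and 511 in KO) and the genes of cycling cells (3845 and 3872 in WT, 3309 and 3319 in KO). The second reference gene, *Actb*, had 1884 and 2011 gene body reads in WT and 2838 and 2501 in KO (log2 fold change 0.45, adjusted p = 0.00232, limma).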

Additional observations from a re-analysis of the deposited data

How the results depend on the processing

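The gene body counts, 0 members called higher and 1 lower, were the same under every alternative run, and the lower member was *Psmd9* each time. The 13 members called higher in the promoter-proximal region became 2 with median-of-ratios scaling within the region and 2 with TMM. Both scalings also called 1 lower (*Psma4*). Over all active genes the number called higher went from 3282 to 634 and 638 with these scalings. Without the activity filter the count of members was 0, and 0 of all 20642 genes were called in this region. DESeq2 called 11. The 4 members called by pausing index became 0 with either within-region scaling and without the activity filter. They became 2 with a pseudocount of 0.1, 7 with a pseudocount of 10 and 7 with the stricter filter of 10 reads per kb. Over all active genes, 1421 were called higher by pausing index in the main fit, and 2 (median of ratios) and 4 (TMM) with the scalings. The pseudocounts gave 994 and 2388, the stricter filter 1645, and without the activity filter 0 of all 20642 genes were called. With the replicate block the counts were 6 and 1, beside 1772 and 131 of all active genes. The labels do not say that a number marks a shared preparation, and the deviations of WT1 and KO1 correlated at -0.11 (promoter-proximal) and 0.02 (gene body), so the libraries were not taken as pairs. With crossed pairing as the replicate block, added after seeing the data, the counts were 20 and 14, beside 4861 and 4121 of all active genes. Leaving out 1 library gave 1 to 13 promoter-proximal and 0 to 16 pausing index calls. The lone library is then assumed to vary like the other genotype. The cause of these shifts was not tested. Within-region scaling turned the promoter-proximal log2 fold change of *Psmb6* negative (-0.21, not called). Of 833 alternative values for single named members, 671 stayed on the same side of the threshold with the same sign, 112 lost the call, 29 gained one and 21 changed sign without being called. Some alternatives repeat the main fit or each other for these members, so the 671 are not all separate checks. Depth limits the promoter-proximal values of *Psmb5*, *Psmc1*, *Psme2*, *Psmc2* and *Psma3*, which rest on few reads per library.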
